A study of Mus musculus with 7 samples.

Results

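The comparison set 3T3-L1 cells given exosomes of inguinal white adipose tissue (iWAT-Exos) against cells given exosomes of brown adipose tissue (BAT-Exos), over both diets of the donor mice. It used 4 of the 7 RNA-seq libraries of the series. They were LFD-iWAT-Exos and HFD-iWAT-Exos against LFD-BAT-Exos and HFD-BAT-Exos, where LFD and HFD are a low-fat and a high-fat diet and the donors were age-matched wild-type C57BL/6 mice. 3T3-L1 is a mouse fibroblast line that can be turned into adipocytes, and all cells were of the WT genotype. By the labels the cells had been differentiated for 8 to 10 days and were then held with exosomes for 48 h, with the same approximate number of particles from each depot. By the study's methods differentiation was started with insulin, IBMX and dexamethasone and went on in medium with insulin. The untreated library, given below as background, had the same differentiation and no exosomes, although the study's legends name PBS buffer for it. Each combination of depot and diet had 1 library and the labels do not say how many donors or wells it pools. The 2 diets therefore stood in for replicates of a depot, and p-values measure only the spread between these libraries. No vWAT library and no untreated library entered the fit. The question of the comparison was whether the depot that released the exosomes matters for the recipient cell, which the study asked of inflammation and of lipid and glucose metabolism.

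Exosomes are small vesicles of endosomal origin that carry lipids, proteins and RNAs between cells. Inguinal fat is a subcutaneous white depot that stores triglyceride and can acquire thermogenic cells, and brown fat burns fatty acids to make heat through the uncoupling protein UCP1. A 3T3-L1 culture stops dividing at confluence, runs through a short round of divisions when it is induced, and then leaves the cell cycle as fat cells form. Transcripts of the cell cycle, of the contractile cytoskeleton and of the fibrous matrix belong to the earlier stages of this course.

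Total counts were 24.3 M with LFD-iWAT-Exos and 17.8 M with HFD-iWAT-Exos, against 22.3 M with LFD-BAT-Exos and 21.9 M with HFD-BAT-Exos. Levels are given as CPM, counts of a gene as a rate per library total after scaling of the libraries, and a gene without counts may have up to 3, which is 0.123 to 0.168 CPM by library. The label of differentiated adipocytes was checked against a list of defining markers. All 8 white adipocyte markers, among them Adipoq (adiponectin), Plin1 (a coat protein of lipid droplets) and Slc2a4 (the insulin-responsive glucose transporter), were below 1 CPM in all 4 libraries and summed to 0.0821 and 0.729 CPM with iWAT-Exos and to 0.313 and 0.783 CPM with BAT-Exos. Of a wider list of 20 adipocyte genes 13 were below 1 CPM in all 4 libraries, while Lpl (lipoprotein lipase) had 938 and 1224 CPM with iWAT-Exos and 1062 and 1224 CPM with BAT-Exos and Plin4 (a lipid droplet coat protein) had 49.9 and 69.1 CPM with iWAT-Exos and 82.7 and 71.9 CPM with BAT-Exos. Preadipocyte fibroblast markers (10 genes, led by Fn1, fibronectin) summed to 41604 and 45267 CPM with iWAT-Exos, against 49032 and 46326 CPM with BAT-Exos. Of the other cell types looked for, macrophage markers (14 genes) summed to 64.6 and 60.9 CPM with iWAT-Exos and 60.2 and 65.3 CPM with BAT-Exos. The largest member was Cd14, at 33.8 and 32.6 CPM with iWAT-Exos and 27.6 and 33.1 CPM with BAT-Exos. Mertk came next, at 14.7 and 16.3 CPM with iWAT-Exos and 19.7 and 20.03 CPM with BAT-Exos. Cd68 and Lyz2 followed at lower levels. Of the 14, 7 were below 1 CPM in all 4 libraries, with Tyrobp at 0 and Adgre1 at or below 0.138 CPM. Skeletal muscle markers (11 genes) summed to 15.7 and 18.4 CPM with iWAT-Exos and 21.8 and 17.9 CPM with BAT-Exos. Tnnt3 had 7.84 and 10.7 CPM with iWAT-Exos and 7.96 and 7.23 CPM with BAT-Exos, and Actn3 had 6.81 and 6.33 CPM against 12.1 and 9.81 CPM. The other 9 were below 1 CPM in all 4 libraries, with Pvalb at 0. Lymphocyte, blood, endothelial, epithelial and brown adipocyte markers summed to at most 4.11 CPM in any of the 4 libraries.

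Between iWAT-Exos and BAT-Exos no gene passed the test, although one group of genes, that of mitosis, stood higher with iWAT-Exos in every member and on both diets. The fit tested 13225 genes, with diet as a block and 1 residual degree of freedom. edgeR's quasi-likelihood test called 0 of them at an adjusted p under 0.05 (0%), and the smallest adjusted p was 0.0579. limma-voom also called 0 and DESeq2 called 25, of which 19 were higher with iWAT-Exos. At an unadjusted p under 0.05, edgeR had 553 genes higher with iWAT-Exos (4.18% of those tested) and 374 lower (2.83%). Beyond 2-fold with p under 0.05, the rule that the study's methods state, there were 108 higher and 70 lower. Without LFD-iWAT-Exos this count was 151, without LFD-BAT-Exos 124, without HFD-BAT-Exos 290 and without HFD-iWAT-Exos 404. In 2713 genes (20.5%) both iWAT-Exos libraries lay above both BAT-Exos libraries, and in 2775 genes (21%) both lay below. These shares over all genes, at p under 0.05 and without overlap, are the background for the list counts of the fit below.

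The LFD pair and the HFD pair share no library, so they show how far the difference between depots repeated. Among 12656 genes with at least 1 CPM in 1 of the 4 libraries, 374 were at least 2-fold higher and 283 at least 2-fold lower with iWAT-Exos in the LFD pair, each with a 95% counting interval that excluded equal levels. In the HFD pair these counts were 138 and 123. Only 16 genes (0.126%) were past 2-fold higher in both pairs and 25 (0.198%) past 2-fold lower in both, while 26 (0.205%) were past 2-fold in opposite ways. The sign was the same in 54.2% of genes, and across genes the ratios of the pairs had a Pearson r of 0.136 and a Spearman coefficient of 0.125, which describe these libraries since genes are not independent replicates. Intervals here cover counting error only, as reads carried no molecular identifiers.

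**Figure D1:**
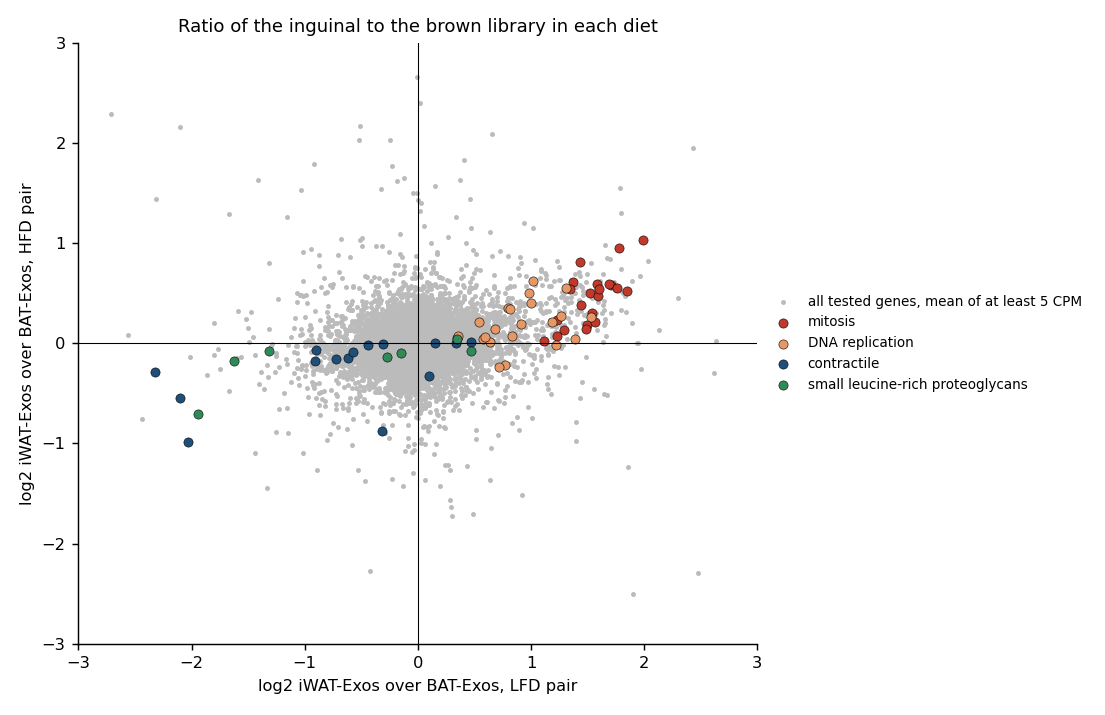
Log2 ratio of the iWAT-Exos to the BAT-Exos library in the LFD pair (x axis) and in the HFD pair (y axis), 1 point per gene with a mean of at least 5 CPM (10559 genes, 9 of them outside the axes), with 4 gene lists coloured. The mitosis genes lie to the right and above 0 on both axes. Most contractile genes and small leucine-rich proteoglycans spread to the left. Their HFD ratios are mostly smaller in size but reach -0.98 in Tagln and -0.88 in Cald1.

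All 22 mitosis genes were higher with iWAT-Exos than with BAT-Exos, in the LFD pair and in the HFD pair, and in all 22 both iWAT-Exos libraries lay above both BAT-Exos libraries. Their median log2 difference was 1.01, against -0.00 over all genes tested, with members between 0.57 and 1.53. Of the 22, 21 had an unadjusted p under 0.05, all higher, and none had an adjusted p under 0.05 (smallest 0.339 in edgeR's test). DESeq2 called 4 of the 22 (Mki67, Ccnb1, Bub1b and Cdc20) and limma-voom 0, and edgeR called 19 without HFD-iWAT-Exos and 0 without any other library. Summed over the list, their level was 1241 CPM with LFD-iWAT-Exos and 755 CPM with HFD-iWAT-Exos, against 418 CPM with LFD-BAT-Exos and 551 CPM with HFD-BAT-Exos. Untreated cells had 515 CPM, a level within the range of the BAT-Exos libraries, and lay below both iWAT-Exos libraries in 21 of the 22 genes. In bulk RNA, more dividing cells and more of these transcripts per cell cannot be told apart.

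The difference was larger on the low-fat diet. The list median was 1.53 in the LFD pair and 0.51 in the HFD pair, and the LFD ratio was the larger in all 22 genes. LFD-iWAT-Exos exceeded HFD-iWAT-Exos in 22 genes, and HFD-BAT-Exos exceeded LFD-BAT-Exos in 21. All 22 were past 2-fold in the LFD pair and 1, Ccnb2, in the HFD pair. Whether the difference between depots depends on diet could not be tested, since such a term would leave no residual degree of freedom. With 1 library left out and no diet block, the share of all genes with p under 0.05 moved as well, and this applies to every such count given below. It was 2.13% higher and 1.32% lower without LFD-BAT-Exos, 3.90% and 3.53% without LFD-iWAT-Exos, 4.39% and 2.69% without HFD-BAT-Exos, and 7.31% and 6.89% without HFD-iWAT-Exos. The count for mitosis was 13 of 22 without LFD-BAT-Exos, 15 without LFD-iWAT-Exos, 19 without HFD-BAT-Exos and 22 without HFD-iWAT-Exos, and the median ran between 0.68 (without LFD-iWAT-Exos) and 1.38 (without HFD-iWAT-Exos).

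Ccnb2 (cyclin B2, a partner of the mitotic kinase CDK1) had 13.6 CPM with LFD-iWAT-Exos and 9.81 CPM with HFD-iWAT-Exos, against 3.35 CPM with LFD-BAT-Exos and 4.74 CPM with HFD-BAT-Exos. Its log2 difference was 1.53 ± 0.28 (SE from edgeR's test, adjusted p = 0.381), and untreated cells had 5.38 CPM. Ccnb1 (cyclin B1), with part of its sequence shared with other transcripts and so uncertain, had 23.7 and 18.3 CPM with iWAT-Exos, against 6.84 and 9.44 CPM with BAT-Exos. Both cyclins thus had no overlap between the depots. Top2a (topoisomerase II alpha, which untangles chromosomes) was the most abundant member, at 317 and 181 CPM with iWAT-Exos and 88.3 and 127 CPM with BAT-Exos, on LFD and HFD in that order. Cenpf, a kinetochore protein, had 40.8 and 24.5 CPM with iWAT-Exos against 11.99 and 16.7 CPM with BAT-Exos. The member with the smallest difference was Cdk1, the mitotic kinase itself, named here after its values were seen. It had 58.6 and 37.4 CPM with iWAT-Exos and 27.1 and 36.8 CPM with BAT-Exos, with a log2 difference of 0.57 ± 0.25 (adjusted p = 0.718 in edgeR's test).

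Genes of cell division outside that list or on it were also among the 12 smallest p-values of higher genes. Aspm, a spindle pole protein, had 29.3 and 21.9 CPM with iWAT-Exos, against 8.36 and 8.84 CPM with BAT-Exos and 10.9 CPM in untreated cells. Its log2 difference was 1.56 ± 0.19, with an adjusted p of 0.118 in edgeR's test, and its ratio passed 2-fold in both pairs. Ect2, an exchange factor that positions the cleavage furrow, had 60.4 and 39.0 CPM with iWAT-Exos against 18.6 and 21.8 CPM with BAT-Exos. Tacc3, which stabilises spindle microtubules, had 34.9 and 31.05 CPM with iWAT-Exos, against 17.0 and 17.4 CPM with BAT-Exos. Cdc20, the activator of the anaphase-promoting complex, had 38.5 and 24.3 CPM with iWAT-Exos against 14.2 and 13.8 CPM with BAT-Exos, and it shares 26.7% of its 31-base words with other transcripts. In these 4 genes the lower iWAT-Exos library, HFD in each, was well above the higher BAT-Exos library.

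**Figure D2:**
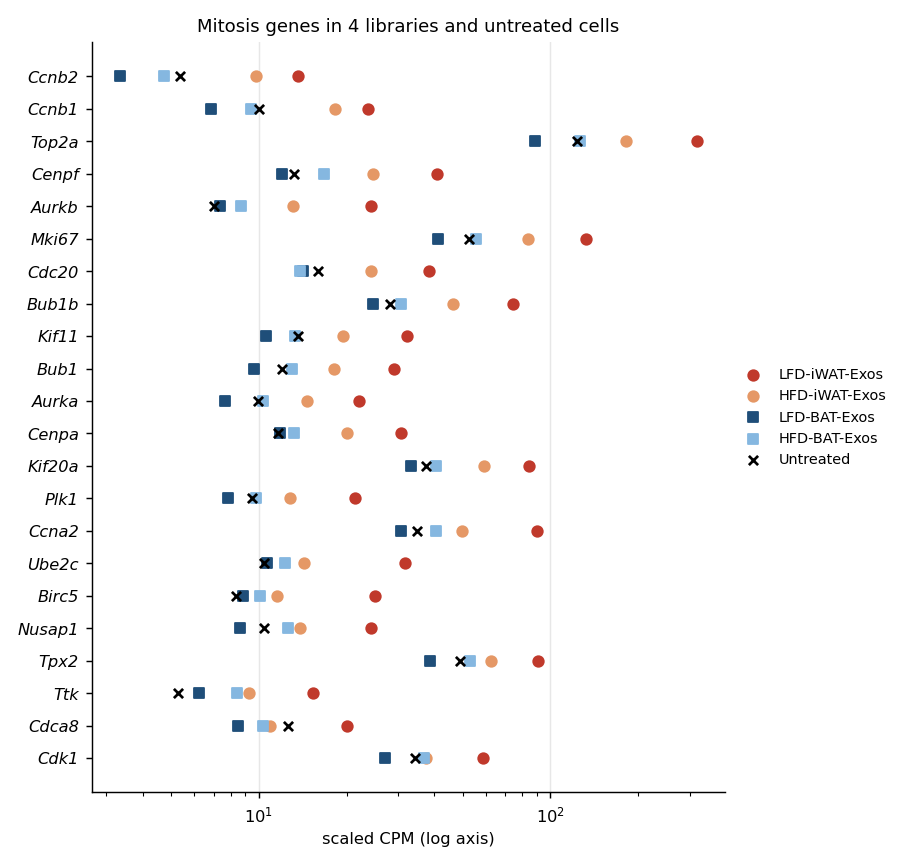
Scaled CPM (log axis) of each of the 22 mitosis genes, ordered by log2 difference, in LFD-iWAT-Exos and HFD-iWAT-Exos (circles), LFD-BAT-Exos and HFD-BAT-Exos (squares) and untreated cells (crosses), 1 library each. LFD-iWAT-Exos is the highest of the 5 in all 22 genes, HFD-iWAT-Exos lies between it and both BAT-Exos libraries, and the distance of HFD-iWAT-Exos to HFD-BAT-Exos is close to 0 in Cdk1.

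Promoters of these genes are shown because the whole list stood on one side and because cell cycle genes of the G2 and M phases are known to be controlled through 2 short elements, the CCAAT box and the cell cycle genes homology region (CHR). In RefSeq promoters of build GRCm38.p6, from 250 bases before to 50 after the start, 18 of the 22 genes had an entry. The CHR (TTTGAA or TTCGAA, both strands) was found in 15 of these 18 (83.3%), against 21.7% of 27025 genes with a promoter. The CCAAT box (CCAAT, both strands) was found in 16 of 18 (88.9%), against 41.1% of all, and both elements together in 15 of 18, against 8.61% of all. A match is a description of the letters and not a site shown to be bound. Such shares come from the gene lists and the sequences alone. They would be the same whatever the libraries held, and say nothing about the difference between depots. In the promoters below the capitals mark CCAAT boxes and CHR matches on either strand, and no match overlaps another. Ccnb2 lies on the minus strand (chr9:70421505-70421804), Cdc20 on the minus strand (chr4:118437294-118437593) and Aspm on the plus strand (chr1:139454523-139454822).
Ccnb2: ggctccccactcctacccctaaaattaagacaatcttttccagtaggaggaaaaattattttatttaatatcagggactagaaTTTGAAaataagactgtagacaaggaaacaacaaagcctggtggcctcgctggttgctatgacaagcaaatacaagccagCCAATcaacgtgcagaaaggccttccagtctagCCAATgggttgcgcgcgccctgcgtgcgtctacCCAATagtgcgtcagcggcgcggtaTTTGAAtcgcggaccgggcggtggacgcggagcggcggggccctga
Cdc20: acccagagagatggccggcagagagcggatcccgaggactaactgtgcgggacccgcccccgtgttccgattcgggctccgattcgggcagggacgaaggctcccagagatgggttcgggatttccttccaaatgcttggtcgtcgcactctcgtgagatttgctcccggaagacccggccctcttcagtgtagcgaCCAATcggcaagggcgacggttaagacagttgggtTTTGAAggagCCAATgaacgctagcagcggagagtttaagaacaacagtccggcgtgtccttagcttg
Aspm: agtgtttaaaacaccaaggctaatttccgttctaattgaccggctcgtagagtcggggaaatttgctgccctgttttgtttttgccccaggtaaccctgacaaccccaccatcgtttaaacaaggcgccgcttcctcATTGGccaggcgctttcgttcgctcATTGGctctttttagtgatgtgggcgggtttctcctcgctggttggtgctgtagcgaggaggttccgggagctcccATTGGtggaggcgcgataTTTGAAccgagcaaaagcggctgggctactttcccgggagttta
Ccnb2 holds 3 CCAAT boxes before its start, a CHR just after it and another CHR further before it, Cdc20 has its CHR between 2 CCAAT boxes, and Aspm has 3 CCAAT boxes before its start and a CHR after it. The promoter of Ccnb1 holds 2 CCAAT boxes and no CHR by these letters. In the list of DNA replication genes, described next, the CHR was found in 4 of 18 promoters (22.2%), near the share of all genes, and the CCAAT box in 11 of 18 (61.1%).

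The 22 genes of DNA replication and nucleotide supply had smaller differences of the same sign. Both iWAT-Exos libraries lay above both BAT-Exos libraries in 19 of 22, the median log2 difference was 0.56, and 12 of 22 had an unadjusted p under 0.05, all higher. Their summed level was 952 and 654 CPM with iWAT-Exos, against 532 and 589 CPM with BAT-Exos and 606 CPM in untreated cells. All 22 were higher in the LFD pair (median 0.82) and 19 in the HFD pair (median 0.17). Cdc45, part of the replicative helicase, had 25.6 and 17.3 CPM with iWAT-Exos, against 10.3 and 11.8 CPM with BAT-Exos, a log2 difference of 0.94 ± 0.22 (edgeR, adjusted p = 0.413). Mcm5, another helicase subunit, had 48.1 and 25.6 CPM with iWAT-Exos against 16.6 and 21.4 CPM with BAT-Exos. Cdc6, which loads the helicase, had 10.8 and 6.33 CPM with iWAT-Exos against 5.32 and 4.10 CPM with BAT-Exos. In each of the 3 the LFD-iWAT-Exos library stood highest and HFD-iWAT-Exos next. Without LFD-iWAT-Exos 5 of 22 had p under 0.05, without LFD-BAT-Exos 6, without HFD-BAT-Exos 9 and without HFD-iWAT-Exos 21, with medians of 0.19, 0.51, 0.62 and 0.79. Of 13 G1 cyclins and CDK inhibitors tested, 1 had p under 0.05: Ccne2 (cyclin E2), at 9.89 and 9.08 CPM with iWAT-Exos and 6.17 and 5.62 CPM with BAT-Exos. The G1 median was 0.02, and Ccnd1 (cyclin D1, with shared reads) had a log2 difference of -0.22 ± 0.11.

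Rell1, the gene nearest to the threshold, and Luzp1 were not on the cell cycle lists, and they differed by nearly the same ratio on both diets. The spindle pole gene Aspm, described above, had nearly the same adjusted p as Luzp1. Rell1, a membrane protein related to the TNF receptor family member RELT, had 51.2 CPM with LFD-iWAT-Exos and 48.6 CPM with HFD-iWAT-Exos, against 14.8 CPM with LFD-BAT-Exos and 16.6 CPM with HFD-BAT-Exos. Its log2 difference was 1.67 ± 0.15 (95% interval 1.33 to 2.02, adjusted p = 0.0579 in edgeR's test). Untreated cells had 18.2 CPM, close to the BAT-Exos libraries. Luzp1, a leucine zipper protein of actin filaments and centrosomes, had 77.2 and 86.4 CPM with iWAT-Exos, against 38.0 and 38.8 CPM with BAT-Exos and 42.1 CPM in untreated cells. The log2 difference was 1.09 ± 0.12 (adjusted p = 0.116, edgeR). For both genes the spread between the diets was small beside the distance between the depots, and both passed 2-fold in each pair.

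Other named genes of this kind had untreated levels on the side of iWAT-Exos. Trim25, a ubiquitin ligase of the RIG-I antiviral pathway, had 187 and 180 CPM with iWAT-Exos, against 100.3 and 99.3 CPM with BAT-Exos and 201 CPM in untreated cells. Bbx, an HMG-box protein, had 136 and 155 CPM with iWAT-Exos against 78.0 and 84.9 CPM with BAT-Exos, with 138 CPM in untreated cells. Camk2g, a subunit of a calcium/calmodulin-dependent kinase, had 132 and 117 CPM with iWAT-Exos against 62.1 and 69.5 CPM with BAT-Exos, with 114 CPM in untreated cells. St6galnac6, a sialyltransferase, had 78.5 and 77.2 CPM with iWAT-Exos, against 42.2 and 48.1 CPM with BAT-Exos and 82.4 CPM in untreated cells. Thus in Rell1, Luzp1 and Ect2 the iWAT-Exos libraries were the ones away from the untreated level, and in these 4 genes the BAT-Exos libraries were. Mast4, a kinase that binds microtubules, had 130 and 132 CPM with iWAT-Exos against 82.6 and 72.2 CPM with BAT-Exos, and 90.7 CPM in untreated cells. The log2 differences of these 5 genes were 0.76 to 0.92, with adjusted p between 0.118 and 0.264 in edgeR's test. The remaining gene of the 12 was Tmed2, a cargo receptor of early secretory vesicles, which by p came directly after Rell1. It had 42.2 and 5.44 CPM with iWAT-Exos, against 7.74 and 1.34 CPM with BAT-Exos. Its diets lay further apart than its depots, and it shares 24.7% of its 31-base words with other transcripts.

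**Figure D3:**
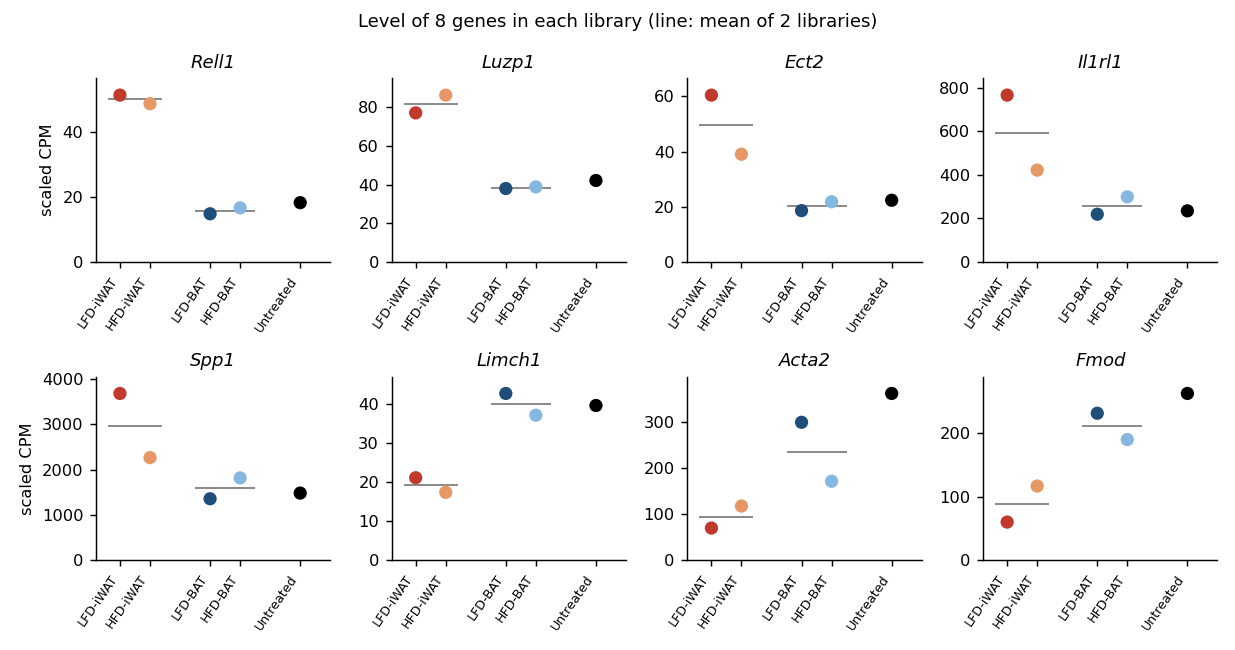
Scaled CPM (y axis, from 0) of 8 genes in the iWAT-Exos libraries, the BAT-Exos libraries and untreated cells, 1 point per library, with a line at the mean of the 2 libraries of a depot. Rell1 and Luzp1 have nearly equal values on both diets, whereas in Ect2, Il1rl1, Spp1, Acta2 and Fmod HFD-iWAT-Exos lies between LFD-iWAT-Exos and the BAT-Exos libraries.

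Genes lower with iWAT-Exos included several with a like ratio on both diets. Limch1, which activates non-muscle myosin II, had 21.1 and 17.3 CPM with iWAT-Exos, against 42.6 and 37.0 CPM with BAT-Exos and 39.5 CPM in untreated cells. The log2 difference was -1.06 ± 0.14 (adjusted p = 0.172, edgeR), and it was past 2-fold lower in both pairs. Zfp263, a zinc finger protein, had 20.1 and 15.9 CPM with iWAT-Exos against 37.2 and 38.3 CPM with BAT-Exos. Tmem260, a transmembrane protein, had 11.3 and 11.04 CPM with iWAT-Exos against 25.2 and 20.6 CPM with BAT-Exos. In all 3 the untreated level (39.5, 32.1 and 28.2 CPM) was nearer to the BAT-Exos libraries. Cnih1, a cargo receptor for export from the endoplasmic reticulum, had 60.7 and 47.9 CPM with iWAT-Exos and 118 and 78.2 CPM with BAT-Exos. Srprb, a subunit of the signal recognition particle receptor with reads shared with a neighbour, had 35.7 and 33.2 CPM with iWAT-Exos and 61.2 and 62.2 CPM with BAT-Exos. Slc25a42, the mitochondrial carrier of coenzyme A, had 33.8 and 31.2 CPM with iWAT-Exos against 55.9 and 49.2 CPM with BAT-Exos. None of these pairs overlapped. Fcho2, which starts clathrin-coated pits, Arrdc3, an arrestin-like adaptor, and Ypel1 had log2 differences of -0.69, -0.57 and -1.41, with adjusted p between 0.341 and 0.381 in edgeR's test.

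Several contractile genes had lower levels with iWAT-Exos, most of all on the low-fat diet. Of 21 genes on this list of smooth muscle type cytoskeleton and SRF targets, 16 passed the filter on low counts. In 11 of the 16 both iWAT-Exos libraries lay below both BAT-Exos libraries and in 2 above. The median log2 difference was -0.41, and 8 of 16 had an unadjusted p under 0.05, all lower, with none at an adjusted p under 0.05. Acta2 (smooth muscle actin) had 69.6 CPM with LFD-iWAT-Exos and 117 CPM with HFD-iWAT-Exos, against 299 CPM with LFD-BAT-Exos and 171 CPM with HFD-BAT-Exos. Its log2 difference was -1.32 ± 0.32 (adjusted p = 0.435, edgeR), and untreated cells, at 362 CPM, were above all 4. Myl9 (a myosin light chain) had 4.72 and 10.8 CPM with iWAT-Exos against 23.9 and 13.2 CPM with BAT-Exos. Tagln (transgelin, an actin-binding protein) had 3.94 and 3.47 CPM with iWAT-Exos against 16.4 and 6.95 CPM with BAT-Exos, and 67.9% of its exon bases overlap another gene. The 3 genes had no overlap between depots, yet LFD-BAT-Exos was well above HFD-BAT-Exos in each. Cald1 (caldesmon) differed more on the high-fat diet, with 652 and 412 CPM with iWAT-Exos and 813 and 757 CPM with BAT-Exos.

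The list median was -0.59 in the LFD pair and -0.12 in the HFD pair. Without LFD-iWAT-Exos 3 of the 16 contractile genes had p under 0.05, without LFD-BAT-Exos 2, without HFD-BAT-Exos 7 and without HFD-iWAT-Exos 10, of which 1 was higher with iWAT-Exos. Untreated cells lay above both iWAT-Exos libraries in 13 of 16. The CArG box, the element bound by SRF, is shown for Myl9 because SRF targets are on the list. By its strict form the box was found in the promoters of 6 of 18 list genes with an entry (33.3%), against 1.81% of all genes with a promoter. Since SRF targets were put on the list, a high share follows from that choice and says nothing about the levels in these libraries. In the Myl9 promoter of GRCm38.p6 (plus strand, chr2:156775214-156775513) the capitals mark it.
Myl9: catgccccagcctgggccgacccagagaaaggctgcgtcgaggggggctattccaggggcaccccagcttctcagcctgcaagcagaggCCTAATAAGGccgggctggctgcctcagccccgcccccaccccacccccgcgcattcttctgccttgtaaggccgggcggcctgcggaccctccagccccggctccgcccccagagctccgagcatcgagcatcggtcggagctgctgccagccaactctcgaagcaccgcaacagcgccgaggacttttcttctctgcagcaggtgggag
The promoter of Acta2 held no strict match, and no entry was used for Tagln.

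Small leucine-rich proteoglycans, which bind collagen fibrils and set their diameter, had a similar pattern. Of 10 genes 9 were tested, 7 of them with both iWAT-Exos libraries below both BAT-Exos libraries, and 4 had an unadjusted p under 0.05, all lower. Fmod (fibromodulin) had 60.0 and 117 CPM with iWAT-Exos, against 231 and 190 CPM with BAT-Exos and 262 CPM in untreated cells, a log2 difference of -1.32 ± 0.26 (adjusted p = 0.381, edgeR). Ogn (osteoglycin) had 494 and 1063 CPM with iWAT-Exos and 1526 and 1204 CPM with BAT-Exos. Aspn (asporin) had 647 and 1312 CPM with iWAT-Exos and 1609 and 1389 CPM with BAT-Exos. In Ogn and Aspn, therefore, only LFD-iWAT-Exos stood far from the others. The list median was -0.70 (-0.21 over the 7 members with a mean of at least 10 CPM and -0.19 without LFD-iWAT-Exos), with -1.31 in the LFD pair and -0.10 in the HFD pair, and 1 member had p under 0.05 without LFD-iWAT-Exos, 1 without LFD-BAT-Exos, 2 without HFD-BAT-Exos and 7 without HFD-iWAT-Exos, of which 1 was higher.

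**Figure D4:**
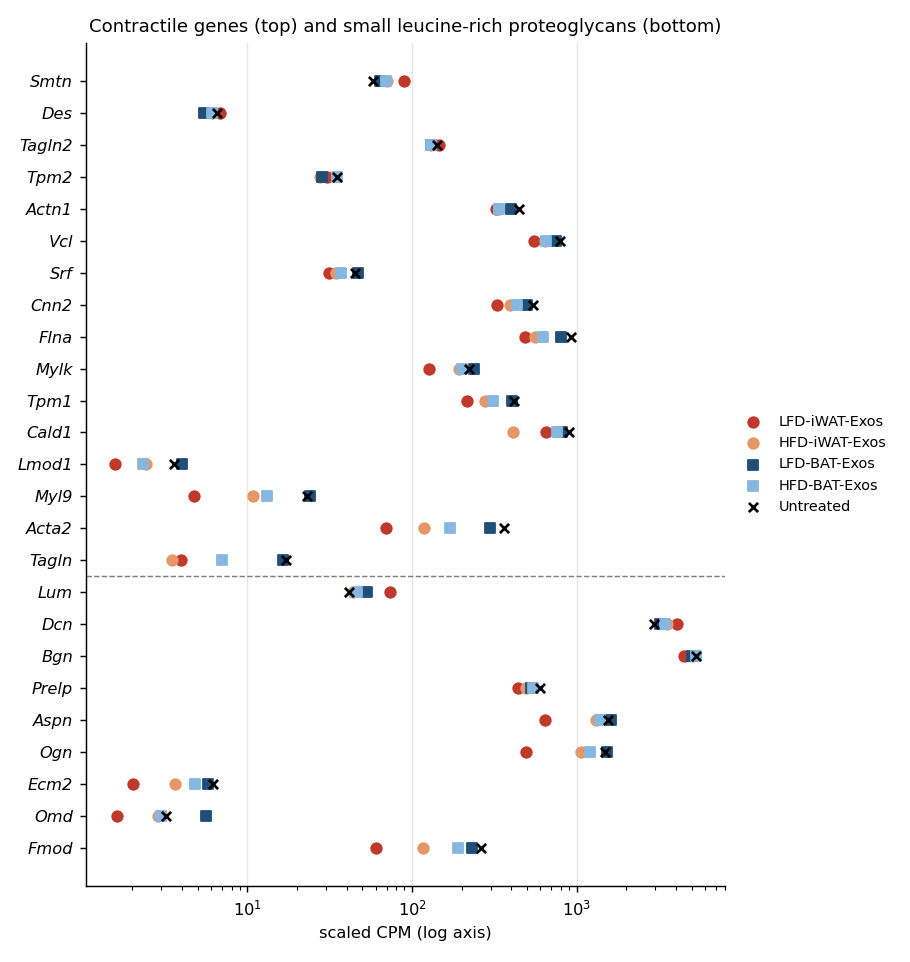
Scaled CPM (log axis) of the 16 contractile genes (above the dashed line) and the 9 small leucine-rich proteoglycans (below it), symbols and colours as in the plot of mitosis genes. Acta2, Myl9, Tagln and Fmod have both iWAT-Exos libraries to the left of both BAT-Exos libraries, and in Ogn and Aspn LFD-iWAT-Exos alone lies apart.

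Other matrix genes varied less. Of 17 collagen chains tested, 9 had both iWAT-Exos libraries below both BAT-Exos libraries, with a median log2 difference of -0.12, 1 member at p under 0.05 and higher, and none lower. Col11a1 (a chain of a fibrillar collagen) had 323 and 591 CPM with iWAT-Exos and 718 and 599 CPM with BAT-Exos, and Col1a1 had 5722 and 6926 CPM with iWAT-Exos against 8083 and 7442 CPM with BAT-Exos. Postn (periostin) had 2111 and 3653 CPM with iWAT-Exos against 5300 and 4618 CPM with BAT-Exos, a log2 difference of -0.83 ± 0.28 (edgeR's test, adjusted p = 0.618). Tnc (tenascin C) and Loxl3 (a lysyl oxidase) went the other way, at 286 and 207 CPM and 284 and 222 CPM with iWAT-Exos, against 186 and 194 CPM and 189 and 195 CPM with BAT-Exos. The summed preadipocyte fibroblast markers given above were also lower with iWAT-Exos without overlap, as were the 3 collagen chains among them, Dlk1, Pdgfrb and Thy1. Other members went the other way without overlap. Fn1 had 13092 and 13120 CPM with iWAT-Exos against 12859 and 12163.5 CPM with BAT-Exos. Pdgfra had 1346 and 1279 CPM against 1265 and 1202 CPM, and Cd34, below 1 CPM, was also higher. The sum of mesothelial markers was higher, at 32.7 and 22.0 CPM with iWAT-Exos and 15.3 and 19.9 CPM with BAT-Exos. Msln (mesothelin) made nearly all of the mesothelial sum, 6 of the 7 mesothelial markers were below 1 CPM, and Lrrn4 and Muc16 were at 0. The part of other cells in these differences was not tested.

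Among cytokines and their receptors the largest difference was that of an interleukin receptor. Il1rl1 (ST2, the receptor of interleukin 33) had 767 CPM with LFD-iWAT-Exos and 422 CPM with HFD-iWAT-Exos, against 219 CPM with LFD-BAT-Exos and 299 CPM with HFD-BAT-Exos, and 235 CPM in untreated cells. This was a log2 difference of 1.15 ± 0.28 (adjusted p = 0.435, edgeR). Il33 itself had 53.7 and 35.4 CPM with iWAT-Exos against 21.8 and 28.5 CPM with BAT-Exos. Receptor and ligand had the same order of libraries, with LFD-iWAT-Exos highest and LFD-BAT-Exos lowest. Il6 (interleukin 6) had 13.7 and 9.58 CPM with iWAT-Exos, against 5.64 and 6.68 CPM with BAT-Exos and 5.60 CPM in untreated cells. Il1rn (the interleukin 1 receptor antagonist) had 7.88 and 6.11 CPM with iWAT-Exos against 3.09 and 5.11 CPM with BAT-Exos. Of 21 list members tested (24 in all), 6 had p under 0.05, all higher, and 12 had both iWAT-Exos libraries above both BAT-Exos libraries against 1 below. The median was 0.35 in the fit, 0.42 in the LFD pair and 0.04 in the HFD pair. Without LFD-BAT-Exos 2 members had p under 0.05, without LFD-iWAT-Exos 4, without HFD-iWAT-Exos 8 and without HFD-BAT-Exos 9.

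Several genes of secreted proteins on other lists were also higher with iWAT-Exos, although none passed the adjusted test. Spp1 (osteopontin) had 3678 and 2262 CPM with iWAT-Exos, against 1355 and 1815 CPM with BAT-Exos and 1480 CPM in untreated cells, a log2 difference of 0.88 ± 0.28 (adjusted p = 0.594 in edgeR's test). Timp1 (an inhibitor of matrix metalloproteinases) had 246 and 143 CPM with iWAT-Exos against 87.4 and 118 CPM with BAT-Exos, and Mmp3 (stromelysin) had 497 and 281 CPM against 196 and 243 CPM. Ptx3 (a pentraxin of innate immunity) had 1855 and 1141 CPM with iWAT-Exos against 703 and 1062 CPM with BAT-Exos. In each of these 4 genes the HFD libraries of the depots were closer than the LFD libraries. The chemokine genes Ccl2 and Ccl7, whose products attract monocytes, had 284 and 235 CPM and 287 and 242 CPM with iWAT-Exos, against 199 and 187 CPM and 175 and 201 CPM with BAT-Exos, with adjusted p of 0.499 and 0.512 in edgeR's test. Hgf (hepatocyte growth factor) had 36.6 and 29.8 CPM with iWAT-Exos against 19.6 and 23.9 CPM with BAT-Exos. Of 12 chemokines tested 2 had p under 0.05, both higher, where 4.18% of all genes were. In 5 of the 12 both iWAT-Exos libraries lay above both BAT-Exos libraries and in 4 below, against 20.5% and 21% of all genes. Of 18 NF-kappaB feedback and effector genes 4 had p under 0.05, all higher. Without LFD-BAT-Exos none of the 18 did, without LFD-iWAT-Exos 2, without HFD-BAT-Exos 4 and without HFD-iWAT-Exos 7. Nos2 (inducible nitric oxide synthase), at 525 and 368 CPM with iWAT-Exos and 240 and 364 CPM with BAT-Exos, and Lcn2 (lipocalin 2), at 1820 and 1388 CPM with iWAT-Exos and 879 and 1348 CPM with BAT-Exos, differed in the LFD pair and by log2 ratios of 0.02 and 0.04 in the HFD pair.

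Of 31 interferon-stimulated genes tested (32 in all), 20 had both iWAT-Exos libraries below both BAT-Exos libraries and 1 above. In the LFD pair 29 were lower and in the HFD pair 21. At p under 0.05 there were 10, all lower. This count was 6 with scaling to total counts and 3 with DESeq2 or on log2(FPKM + 1). Over all genes tested, the share lower at that p was 2.83% in the fit and 2.40% with total counts. It was 0.78% with DESeq2 and 2.61% on log2(FPKM + 1). Mx1, an antiviral GTPase, had 15.8 and 21.5 CPM with iWAT-Exos, against 35.5 and 24.0 CPM with BAT-Exos and 26.2 CPM in untreated cells, a log2 difference of -0.67 ± 0.24 (adjusted p = 0.663 in edgeR's test). Cmpk2, a nucleotide kinase of the antiviral response, had 8.41 and 13.1 CPM with iWAT-Exos against 20.2 and 14.0 CPM with BAT-Exos. Ifit3, which binds foreign RNA with its partners and shares sequence with Ifit3b, had 70.3 and 96.2 CPM with iWAT-Exos against 147 and 108 CPM with BAT-Exos. LFD-BAT-Exos was the highest of the 4 libraries in each, and the list median was -0.25, with -0.43 in the LFD pair and -0.07 in the HFD pair. Without LFD-BAT-Exos 1 of the 31 had p under 0.05, without LFD-iWAT-Exos 5, without HFD-BAT-Exos 13 and without HFD-iWAT-Exos 16.

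Of 26 cholesterol genes tested, 22 were higher with iWAT-Exos in the LFD pair (median 0.28) and 17 in the HFD pair (median 0.08). Stard4, a sterol carrier, had 44.7 and 41.9 CPM with iWAT-Exos against 28.1 and 35.5 CPM with BAT-Exos. Fdps (farnesyl diphosphate synthase, with reads shared with a predicted gene) had 59.6 and 45.6 CPM with iWAT-Exos and 33.5 and 38.3 CPM with BAT-Exos. Msmo1, an oxidase of sterol synthesis, overlapped between the depots, at 60.8 and 41.8 CPM with iWAT-Exos and 47.7 and 30.2 CPM with BAT-Exos, but was higher in each pair. At p under 0.05, 4.18% of all genes tested were higher in the fit and 1.401% with DESeq2. Of the 26 cholesterol genes, 5 had p under 0.05, all higher, 13 had both iWAT-Exos libraries above both BAT-Exos libraries, and the median was 0.21. The count at p under 0.05 was 2 with DESeq2, 3 without LFD-iWAT-Exos, 3 without LFD-BAT-Exos and 11 without HFD-iWAT-Exos.

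Genes of fuel use in fat cells gave few differences. Pdk4, the kinase that turns pyruvate dehydrogenase off, had 43.4 and 55.1 CPM with iWAT-Exos, against 62.8 and 82.2 CPM with BAT-Exos and 68.1 CPM in untreated cells, a log2 difference of -0.56 ± 0.12 (adjusted p = 0.391 in edgeR's test). Ces1d, a lipase of the carboxylesterase family, had 12.3 and 17.5 CPM with iWAT-Exos and 28.0 and 24.8 CPM with BAT-Exos. Ppargc1a (PGC-1 alpha, a coactivator of mitochondrial biogenesis) had 3.49 and 5.55 CPM with iWAT-Exos and 9.26 and 6.77 CPM with BAT-Exos, a log2 difference of -0.85 ± 0.31 (adjusted p = 0.668 in edgeR's test). All 3 were lower with iWAT-Exos without overlap. Cebpd, an early transcription factor of adipogenesis, was on the other side, at 228 and 196 CPM with iWAT-Exos and 140 and 173 CPM with BAT-Exos.

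Among the 18 readouts that the study followed in these cells, 15 were tested, and p was under 0.05 for Il6 and Ccl2, higher with iWAT-Exos, and for Ppargc1a, lower. Fasn (fatty acid synthase) had 113 and 125 CPM with iWAT-Exos and 124 and 103 CPM with BAT-Exos, with a log2 difference of 0.07 and a 95% interval of -0.23 to 0.37. Acaca (acetyl-CoA carboxylase 1, with shared reads) had a difference of 0.06 and an interval of -0.28 to 0.40, and Pparg, the main regulator of adipogenesis, one of 0.06 and -0.33 to 0.46. Lpl, Srebf1 (SREBP-1), Cpt1a (the gate of mitochondrial fatty acid oxidation) and Lipe (hormone-sensitive lipase) had log2 differences of -0.09, -0.16, -0.08 and 0.04. Hk2 (hexokinase 2), Gys1 (glycogen synthase) and Pnpla2 (adipose triglyceride lipase) had 0.06, 0.13 and 0.15. Cxcl1, a neutrophil chemokine, had 534 and 386 CPM with iWAT-Exos against 304 and 383 CPM with BAT-Exos, an LFD ratio of 0.81 and an HFD ratio of 0.01. Tnf and Il1b had at most 3 counts in each of the 4 libraries, and Ucp1 had 4 counts in HFD-BAT-Exos and 0 in the other 3, so neither direction could be read at this depth.

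In several housekeeping and energy lists the diets disagreed in sign. Glycolysis genes (27 tested) were higher with iWAT-Exos in 24 in the LFD pair and lower in 23 in the HFD pair, with medians of 0.22 and -0.14. Nuclear oxidative phosphorylation genes (27 tested) were higher in 26 in the LFD pair and lower in 20 in the HFD pair, with medians of 0.17 and -0.10, and the 13 mitochondrially encoded genes were lower in 12 in the LFD pair and higher in 12 in the HFD pair. Ribosomal protein genes (30) had medians of 0.11 and -0.12. No member of the glycolysis, oxidative phosphorylation or ribosomal lists had p under 0.05 in the fit. All of these medians are below 0.25 in size, and the share of counts from mitochondrially encoded genes was 2.40% and 2.56% with iWAT-Exos and 2.60% and 2.25% with BAT-Exos.

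**Figure D5:**
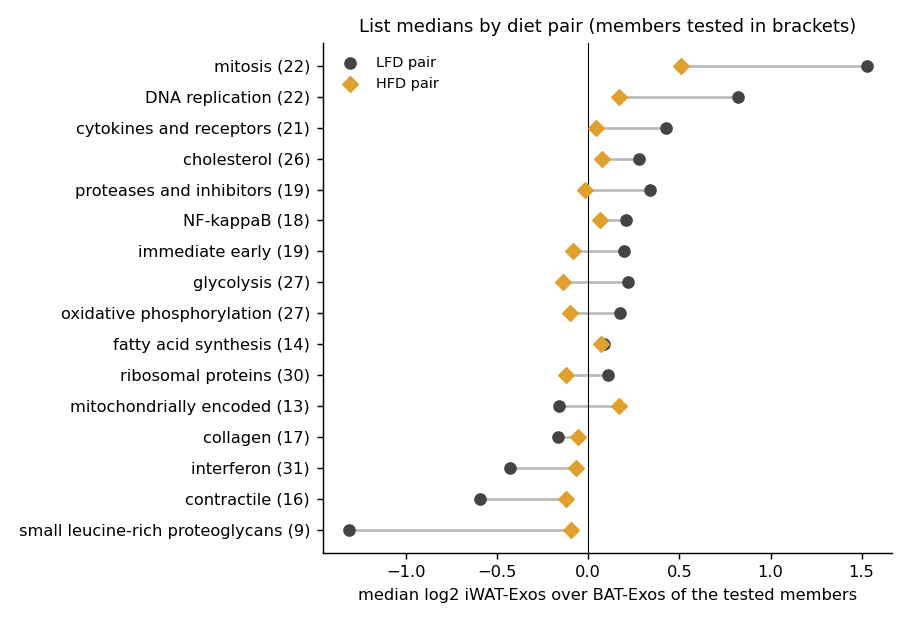
Median log2 ratio of iWAT-Exos over BAT-Exos of the tested members of 16 lists in the LFD pair (circles) and in the HFD pair (diamonds), with the number tested in brackets. The mitosis list is at 1.53 and 0.51, the contractile list at -0.59 and -0.12, and glycolysis, oxidative phosphorylation, ribosomal protein and mitochondrially encoded genes have medians on either side of 0.

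The other lists gave at most 3 members with p under 0.05 in a direction. The YAP targets Crim1 and Amotl2 had 137 and 124 CPM and 390 and 341 CPM with iWAT-Exos, against 105 and 107 CPM and 294 and 301 CPM with BAT-Exos, and 3 of 10 YAP targets had p under 0.05. Without LFD-BAT-Exos or HFD-BAT-Exos none did, without LFD-iWAT-Exos 1 was higher and 1 lower, and with DESeq2 none had p under 0.05. With DESeq2, 1.401% of all genes were higher at that p, as given above. Cav2 (caveolin 2) had 300.4 and 314 CPM with iWAT-Exos and 213 and 247 CPM with BAT-Exos. Rictor, the defining subunit of mTOR complex 2, had 118 and 118 CPM with iWAT-Exos and 83.7 and 95.2 CPM with BAT-Exos, and it was the one gene of 23 tested in insulin signalling with p under 0.05. Agpat3, an acyltransferase of lipid synthesis, had 47.2 and 45.6 CPM with iWAT-Exos against 60.5 and 62.6 CPM with BAT-Exos, the one such gene of 13 in triglyceride synthesis. Fatty acid synthesis (14 tested), glycogen metabolism (14), NRF2 targets (20), immediate early factors (19), vesicle traffic (18), adipocyte identity (7 of 20) and reference genes (12) had none.

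Some of the genes with large ratios in both pairs had few counts. Adh1 (alcohol dehydrogenase 1) had 2.34 and 2.30 CPM with iWAT-Exos against 6.80 and 4.79 CPM with BAT-Exos. Eva1a, a regulator of autophagy, had 0.821 and 1.06 CPM with iWAT-Exos and 1.74 and 2.39 CPM with BAT-Exos. Both were past 2-fold lower in each pair. In the other direction, Trpm6, a magnesium channel, had 3.94 and 3.42 CPM with iWAT-Exos against 1.12 and 1.11 CPM with BAT-Exos, and Arhgef39, a guanine nucleotide exchange factor, had 4.76 and 3.36 CPM against 1.74 and 1.47 CPM. Mxd3, a Max partner of cycling cells, and Rtkn2, a rhotekin, had log2 differences of 1.23 ± 0.29 and 1.34 ± 0.28. Cck, which encodes cholecystokinin, had 2.30 and 1.23 CPM with iWAT-Exos against 1.07 and 0.460 CPM with BAT-Exos. At such levels a library holds few reads per gene.

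Several of the largest ratios were those of genes that overlap others, and the sums over the overlapping genes lay closer together. Ugt1a1, a glucuronosyltransferase that shares its last exons with its whole cluster, had 0.0410 CPM with LFD-iWAT-Exos and 0 with HFD-iWAT-Exos, against 2.55 and 2.62 CPM with BAT-Exos. The 9 Ugt1a genes together had 94.5 and 85.6 CPM with iWAT-Exos and 84.6 and 84.6 CPM with BAT-Exos. Pet117, an assembly factor of cytochrome oxidase whose exons lie wholly within Csrp2bp, had 0.0410 and 0.0560 CPM with iWAT-Exos against 1.92 and 4.14 CPM with BAT-Exos, and with that gene summed to 27.8 and 26.5 CPM and to 28.8 and 26.5 CPM. Pcdhga2, a clustered protocadherin, had 34.6 and 1.57 CPM with iWAT-Exos and 391 and 209 CPM with BAT-Exos, whereas the 22 Pcdhg genes together had 167 and 947 CPM with iWAT-Exos and 539 and 910 CPM with BAT-Exos. These 3 values are uncertain for that reason. Fsbp, which overlaps Rad54b, and the histone gene Hist2h2bb, which has an identical copy, are uncertain too.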

How the data were processed

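Total RNA of 3T3-L1 cells was sequenced as paired ends from strand-marked libraries on an Illumina NovaSeq. By the study's methods, fastp was used for trimming, HISAT2 for mapping and StringTie for gene quantification. Their versions and the mouse build are not given in the sources used here (a human reference is named, although the gene IDs are mouse). The deposited counts are whole-number raw reads per gene (34745 genes, 19989 with a count in the 4 libraries), and the deposited FPKM values, made by the authors, are these counts divided by gene length and library total.

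Counts were tested with edgeR 4.0.16 in R 4.3.3 (TMM factors, filterByExpr, quasi-likelihood F test, diet as a block, Benjamini-Hochberg adjusted p under 0.05). The SE was obtained as the log2 difference over the root of the F statistic. CPM of the compared libraries were scaled with the TMM factors of the fit. For the vWAT and untreated libraries TMM factors of all libraries were used, put on the same scale. Ratios within a diet used a prior count of 2 and exact (Clopper-Pearson) 95% intervals. DESeq2 1.42.0, limma-voom (limma 3.58.1), limma on log2(FPKM + 1), other filters and scalings and the omission of each library were run as alternatives. Named genes were the 12 smallest p-values per direction (mean of at least 5 CPM, same sign on both diets) and up to 4 members per list by log2 difference. Also named were the 12 genes per direction whose smaller pair ratio was largest (same sign in both pairs, at least 50 counts in 1 library). The study's readouts and genes past 2-fold in opposite ways were added. Predicted genes were not named. Genes with at least 20% of exon bases or 31-base words in other genes (41 of 206) were called uncertain. The comparison, the 40 gene lists and the rules were chosen with earlier results of these data known. The scripts were tested on simulated data. A few genes that the rules name are not reported here.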

Additional observations from a re-analysis of the deposited data

Results flagged for a closer look

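A few genes were far apart between the depots on both diets but in opposite ways, and the difference between the diets was not tested. Rab22a, a small GTPase of endosomes, had 104 and 21.9 CPM with iWAT-Exos (LFD, HFD) against 18.6 and 108 CPM with BAT-Exos, log2 ratios of 2.48 in the LFD pair and -2.29 in the HFD pair. Zfp46, a zinc finger protein, had 3.20 and 19.7 CPM with iWAT-Exos against 21.4 and 3.96 CPM with BAT-Exos, ratios of -2.71 and 2.29. Xiap, an inhibitor of caspases, had 14.6 and 76.9 CPM with iWAT-Exos against 62.7 and 17.2 CPM with BAT-Exos, ratios of -2.10 and 2.16. Zbtb4, a repressor that binds methylated DNA, had 12.3 and 56.2 CPM with iWAT-Exos against 61.6 and 20.7 CPM with BAT-Exos, ratios of -2.31 and 1.44. Tgfbr3l, which overlaps another gene and is uncertain, had 8.58 and 1.63 CPM with iWAT-Exos against 2.24 and 9.62 CPM with BAT-Exos, ratios of 1.90 and -2.50. In untreated cells the levels were 116 CPM for Rab22a, 21.7 for Zfp46, 25.6 for Xiap, 22.1 for Zbtb4 and 5.92 for Tgfbr3l, so in each of the first 2 the untreated level lay near the 2 higher libraries.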

How the results depend on the processing

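The 0 genes called by edgeR became 2 with no filter beyond 1 count (Tmed2 and Rell1) and 25 with DESeq2, and stayed at 0 in the other alternatives with 4 libraries. With 1 library left out and no diet block it was 23 without LFD-iWAT-Exos, 285 without HFD-iWAT-Exos, 1 without LFD-BAT-Exos and 0 without HFD-BAT-Exos. The 178 genes past 2-fold at p under 0.05 became 58 with a mean of at least 10 CPM, 107 with DESeq2 and 18 with limma on log2(FPKM + 1), a scale that shrinks the ratios of low genes. Without LFD-iWAT-Exos, HFD-iWAT-Exos, LFD-BAT-Exos and HFD-BAT-Exos, in that order, they were 151, 404, 124 and 290. The 41 genes past 2-fold the same way in both diets became 12 with at least 5 CPM in 1 of 4 libraries, 8 with at least 10 CPM, 5 on FPKM + 1 and 156 at a fold threshold of 1.5, and the 26 in opposite ways became 12, 8, 7 and 88 under these settings. For 88 named genes with p under 0.05, 0 of 1123 values under the 13 alternatives changed sign. These genes were kept by their p in the same libraries, which made a change of sign unlikely from the start. The 0 is therefore no independent check. The values of single lists with a library left out were added after seeing the data. Libraries were paired by diet alone, and without this block 0 genes were called and 197 were past 2-fold at p under 0.05. Without HFD-iWAT-Exos, edgeR also called 12 DNA replication genes, 4 cytokine genes, 2 cholesterol genes, 2 contractile genes, 3 small leucine-rich proteoglycans and 1 interferon-stimulated gene.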

Other observations

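Dnm3os, a non-coding RNA whose transcript carries microRNAs of mesenchymal cells, had 143 CPM with LFD-BAT-Exos and 111 CPM in untreated cells, against 6.69 CPM with LFD-iWAT-Exos, 14.2 CPM with HFD-iWAT-Exos and 11.2 CPM with HFD-BAT-Exos. Its LFD ratio was -4.40 and its HFD ratio 0.33 on the log2 scale. Igf2 (insulin-like growth factor 2, whose exons overlap another gene) had 38.7 and 21.7 CPM with iWAT-Exos against 24.8 and 56.3 CPM with BAT-Exos, with 11.3 CPM in untreated cells.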
